A study of Drosophila melanogaster with 4 samples.

Results

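Clusters of ubiquitylated histone H2B (H2Bub) were described in the 2000000 bp at the telomere-side end of 4 chromosome arms of Drosophila melanogaster. A cluster is a region that the deposited files type as significantly enriched. It was a member when its midpoint lay in the first 2000000 bp of X, 2L or 3L, or in the last 2000000 bp of 3R, with arm lengths taken from the file headers. The rule uses position only and leaves out 2R. It found 341 members among 5440 clusters in the replicate 1 list, 356 among 5597 in replicate 2 and 386 among 6056 in the authors' combined list. Members were compared with the interior of the same arms, meaning clusters with midpoints outside 2 Mb of either end, of which there were 3728, 3811 and 4074 in the same order of lists.

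The chromatin came from heads of wild-type Oregon-R (Oregon-R-modENCODE) adults (stage labelled as mixed adult), grown in population cages, with no treatment or further genotype. It was fixed with formaldehyde and precipitated with the NRO3 antibody. The 2 ChIP samples, replicates 1 and 2, each have an input sample of their own, 2 in all. The labels do not say whether the replicates are separate fly populations, so the spread between them may be technical. The lists hold positions and scores without gene names, so the head label was not checked against marker genes.

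H2Bub is a mark of gene bodies that RNA polymerase II is transcribing. The ubiquitin is added by the ligase Bre1 and is taken off by, among others, the deubiquitylase Nonstop in the SAGA complex. Fly telomeres are kept up without telomerase by the retrotransposons HeT-A, TART and TAHRE, next to which lie telomere-associated satellite repeats. Reporter genes placed in those repeats are often silenced, which is known as telomere position effect. How close the assembled sequence of each arm comes to its telomere is not given in the sources used here. Positions are those of FlyBase release 5, for which no gene annotation was at hand, and regions are therefore named by position alone.

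Over the 4 arms together the telomere-side 2 Mb was covered by H2Bub about as much as the interior. Clusters took 28.9% of its bases in replicate 1 and 30.3% in replicate 2, against 28.6% and 29.4% of the interior. The difference was 0.617 ± 0.404 percentage points (mean ± SD, n = 2). Members numbered 42.6 per Mb in replicate 1 and 44.5 in replicate 2, against 45.5 and 46.5 in the interior, a difference of -2.47 ± 0.609 clusters per Mb. Their median width was 3779 bp in replicate 1 and 3789 bp in replicate 2, against 3446.5 and 3471 bp. These differences are given without a test, because 2 replicates of a single condition cannot give a two-sided exact p below 0.5 and clusters of a library are not replicates. Neither of the first 2 differences had the same sign on every arm: without 3R the density difference became 0.370 clusters per Mb, and without 3L the covered-share difference became -0.418 points. With only the upper 50% of each list by score, density was higher among members, by 1.87 clusters per Mb, and with the end of 2R added the covered-share difference was -0.398 points.

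Taken arm by arm, 3R stood furthest from its interior in density and median width in the replicates, with fewer but wider clusters. It held 65 members in replicate 1 and 71 in replicate 2, or 32.5 and 35.5 per Mb, against 44.0 and 46.4 per Mb in its interior. The difference was -11.2 ± 0.435 clusters per Mb (SD, n = 2). Median width of these members was 5144 and 5212 bp, against 3630.5 and 3585 bp, a difference of 1570 ± 80.3 bp. Domains over 10 kb made up 27.7% of them in replicate 1 (18 of 65) and 23.9% in replicate 2 (17 of 71), against 16.7% and 15.8% in the interior. In the combined list that share was 24.1% against 16.8%, but median width was 3803 bp against 3744 bp. Covered share on 3R was nevertheless lower than in the interior, at 27.0 and 27.7% against 29.6 and 30.1%.

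On 3L the order was the opposite for coverage. Its telomere-side 2 Mb was 31.3% covered in replicate 1 and 32.1% in replicate 2, against 27.8 and 28.2% in the interior, a difference of 3.72 ± 0.267 points. The 3L replicates differed in how that coverage was divided, with 87 members of median width 4631 bp in replicate 1 and 101 of 3700 bp in replicate 2. The interior of 3L had medians of 3685 and 3595 bp.

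In the replicates the end of 2L was close to its interior in density, covered share and median width. It held 86 members in each replicate, or 43.0 per Mb, against 42.2 and 42.9 per Mb. It was 29.2 and 29.5% covered, against 29.0 and 29.4%. Median width differed from that of the interior by -74.3 ± 31.5 bp. In the combined list, however, median width on 2L was 4174 bp against 3593 bp, and density was 43.0 against 45.7 per Mb. Domains over 10 kb were fewer there, 15.1 and 17.4% of members against 19.2 and 19.5%. On X, 103 members in replicate 1 and 98 in replicate 2 gave 51.5 and 49.0 per Mb, against 54.7 and 54.5 per Mb. Covered share on X was 28.0 and 31.7%, against 27.6 and 29.6%, and the spread of 1.14 points between replicates was nearly as large as the mean difference of 1.24.

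**Figure D1:**
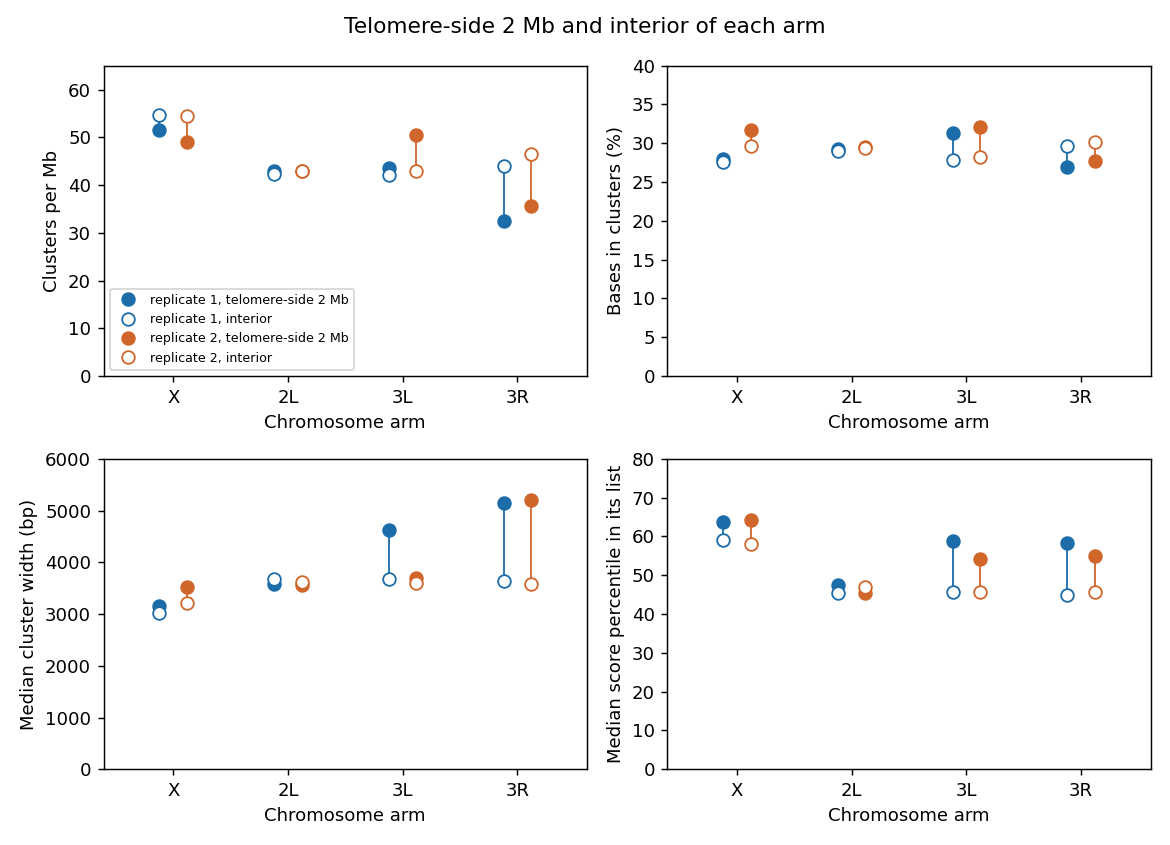
Cluster density (per Mb), covered share (%), median width (bp) and median score percentile on each arm, for the telomere-side 2 Mb (filled points) and the interior (open points), with replicates in 2 colours and a line joining the 2 values of a replicate. On 3R the density points at the end, 32.5 and 35.5 per Mb, lie below the interior, while width and score percentile lie above it; on 2L the filled and open points nearly coincide.

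The telomere-side 2 Mb was also set among successive 2 Mb steps of its own arm, counted from the telomere-side end up to 2 Mb from the other end. By covered share it ranked 5th of 10 steps on X in replicate 1 and 3rd in replicate 2, 6th and 7th of 10 on 2L, 3rd of 11 on 3L in both and 9th of 12 on 3R in both. By number of clusters, 3R had rank 11 of 12 in both replicates, and its 32.5 per Mb in replicate 1 compares with a range of 32.0 to 64.5 over the other 11 steps. By median width 3R ranked 1st of 12 in both replicates, with 5144 bp in replicate 1 against 2964 to 4680.5 bp elsewhere. In the combined list its median of 3803 bp ranked 6th. The interior of 3R had a median of 3744 bp in that list. The end of an arm was thus within the range of its other steps for density and coverage on all 4 arms, and outside it for width on 3R in both replicates and on 3L in replicate 1. By median score percentile the end of 3L lay just above its other steps in replicate 1, 58.7 against at most 58.2. The same held in the combined list for 3L, 58.3 against 57.6, and for X, 61.7 against 61.3.

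**Figure D2:**
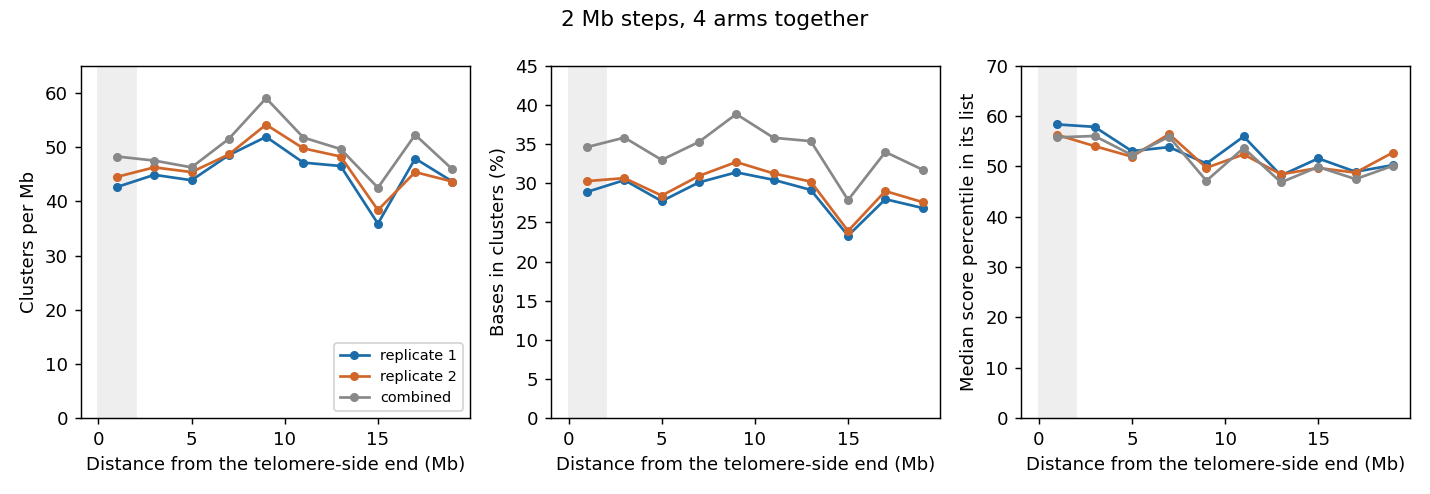
Clusters per Mb, covered share (%) and median score percentile in 2 Mb steps of distance from the telomere-side end, over X, 2L, 3L and 3R together, for both replicates and the combined list, as far as all 4 arms reach. The telomere-side step (shaded) has 28.9 and 30.3% coverage in the replicates, close to 30.4 and 30.6% in the next step, and its score percentiles of 58.3 and 56.3 are followed by 57.8 and 54.0.

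Within the 2 Mb, coverage was low in the outermost 100 kb and higher in the next 100 kb on each arm. In the outermost step X had 6.03 ± 0.632%, 2L 9.40 ± 0.566% and 3R 12.4 ± 0.115% of its bases in clusters (mean ± SD, n = 2), and 3L had no covered base in either replicate. From 100 to 200 kb it was 15.8 ± 3.70% on X, 58.2 ± 4.82% on 2L, 36.8 ± 2.13% on 3L and 50.4 ± 1.13% on 3R. Only on 3L was the outermost step the lowest of the 2 Mb. Neither replicate covered a base from 200 to 300 kb on X or from 1300 to 1400 kb on 3R. The same held on 2L from 600 to 700, 1300 to 1400 and 1500 to 1600 kb. Such empty steps were 7.5% of 80 in the telomere-side 2 Mb in each replicate, against 7.95% of 818 in the interior. The outermost step held 9 members in each replicate over the 4 arms. Averaged over the 4 arms its coverage was 6.72% in replicate 1 and 7.18% in replicate 2. The same average over 184 interior steps at equal distance had a median of 28.2 and 29.5%, and 3 of them in replicate 1 and 2 in replicate 2 were as low. On any single arm such a step was not rare: between 9.76% of interior steps (3L) and 23.4% (3R) were covered as little in replicate 1. The share of this sequence to which reads can be mapped was not measured, and its part in the low coverage was not tested.

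The first cluster began at a different distance on each arm. On 3R it lay nearest the end, with 10.5 kb of sequence outside it in both replicates. That cluster ran from 27890447 to 27894555 in replicate 1 (4109 bp) and from 27889998 to 27894587 in replicate 2 (4590 bp), with scores of 1.30 and 1.31. On X 23.6 kb in replicate 1 and 23.4 kb in replicate 2 lay outside the first cluster, and on 2L 67.3 and 67.1 kb. On 3L it was 132 kb in replicate 1 and 130 kb in replicate 2, where the first clusters differed: 131840 to 144325 (12486 bp, score 1.66) in replicate 1, and a narrow cluster from 129523 to 131508 (1986 bp, score 0.489) in replicate 2. The combined list placed a further cluster of 1001 bp on X, from 11290 to 12290, which neither replicate held.

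**Figure D3:**
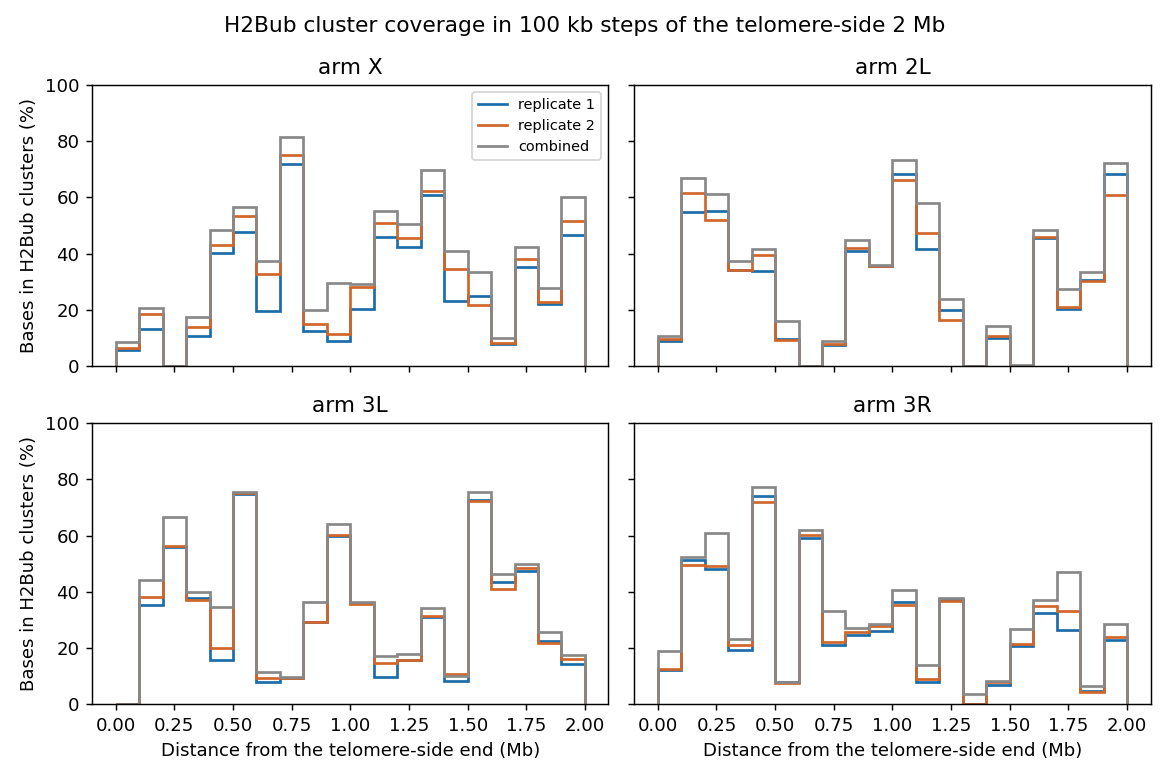
Share of bases in H2Bub clusters (%) in 100 kb steps of distance from the telomere-side end (Mb), by arm, for both replicates and the combined list. The outermost step is low on each arm (0% on 3L, 6.03% on X, mean of the replicates), coverage in the replicates reaches 75.2% further in (X, replicate 2), and the replicates follow each other step by step. Steps at 0% in both replicates also lie further in on X, 2L and 3R.

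In steps of 0.5 Mb each arm had its own order of rich and poor stretches. X was poorest at its end, with 13.9% covered from 0 to 0.5 Mb in replicate 1 and 16.3% in replicate 2. Only 3 of 36 interior steps of X were lower in replicate 1, and 2 in replicate 2. It reached 38.6 and 44.3% from 1 to 1.5 Mb, where 31 and 34 of the 36 interior steps were lower. The ends of 2L and 3R went the other way. The outer 0.5 Mb was covered to 37.4 and 39.4% on 2L, above 35 of 38 interior steps in both replicates, and to 41.0 and 40.8% on 3R, above 42 and 41 of 47. Further in, 2L dropped to 18.7 and 19.0% from 0.5 to 1 Mb, and 3R to 17.7 and 17.8% from 1 to 1.5 Mb. On 3L rich and poor steps alternated, and the highest, from 1.5 to 2 Mb, had 40.1 and 39.9%, above 37 of 41 interior steps in both. The mean over arms therefore hid differences between arms that were larger than those between replicates.

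Scores, the authors' own value per cluster on a scale not given in the sources used here, ran somewhat higher among members. The score was used as a percentile within its list, so 50 is the middle of a list. The median member stood at the 58.3rd percentile in replicate 1 and the 56.3rd in replicate 2, against 51.3 and 50.6 for interior clusters, a difference of 6.37 ± 0.942 points (SD, n = 2). Quartiles overlapped widely: in replicate 1 the lower and upper quartiles were 35.3 and 80.3 for members and 26.4 and 75.5 for interior clusters. By arm, the difference was 11.3 ± 2.903 points on 3R, 10.8 ± 3.34 on 3L and 5.44 ± 1.18 on X. On 2L it was 0.286 ± 2.72, smaller than the spread between replicates. The combined list gave another order, with 11.3 points on 3L, 5.62 on X, 5.61 on 3R and 4.11 on 2L. Over the 4 arms together, clusters from 2 to 4 Mb had medians of 57.8 in replicate 1 and 54.0 in replicate 2, but the arms differed there. On 3L the median fell to 41.9 and 44.6, below the 45.6 and 45.8 of its interior. On 3R it was 58.6 and 57.2, and on X 62.0 and 57.2. On 2L it rose to 58.5 and 56.4, from 47.6 and 45.4 among members. Within the outer 1 Mb alone the difference was 2.76 points. The outermost 0.5 Mb had the lowest median of the 4 steps of 0.5 Mb in both replicates, 50.2 and 49.2, and the step from 1.5 to 2 Mb the highest, 63.2 and 60.2.

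Since wide clusters score higher, members were also compared with interior clusters of the same width class. Members held fewer narrow clusters: 61 of 341 in replicate 1 (17.9%) and 64 of 356 in replicate 2 were at most 2 kb wide, against 22.7 and 23.4% of the interior. In that narrow class the median score percentile was 14.8 among members and 15.2 in the interior in replicate 1, and 12.9 and 13.6 in replicate 2. From 2 to 5 kb it was 49.8 against 46.4 and 51.2 against 47.2. Between 5 and 10 kb replicate 1 gave 75.2 against 73.8 and replicate 2 the opposite order, 72.7 against 73.6. Over 10 kb, 62 members of replicate 1 had a median of 91.4 against 86.7, and 65 members of replicate 2 had 92.0 against 85.9. Among these classes the medians thus differed most in the widest in both replicates. That class has no upper limit, and widths within it were not matched. In the combined list the gap was as large from 2 to 5 kb, 51.7 against 47.4, as over 10 kb, 89.3 against 85.1.

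**Figure D4:**
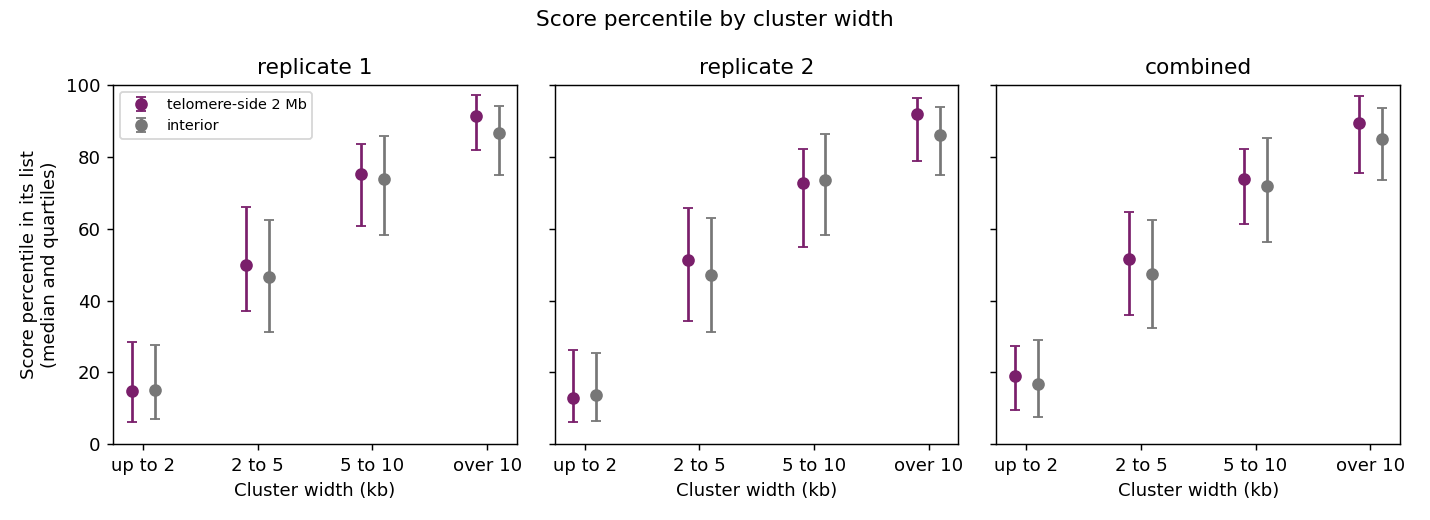
Median and quartiles of the score percentile in 4 classes of cluster width, for the telomere-side 2 Mb and the interior, in each list. Medians nearly coincide in the narrowest class (14.8 and 15.2 in replicate 1). In the replicates they stand apart most in the widest class (91.4 and 86.7 in replicate 1) and in the combined list from 2 to 5 kb (51.7 and 47.4), with quartiles that overlap in every class.

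Several of the highest scores of each list lay in the telomere-side 2 Mb. Members supplied 5 of the 10 highest-scoring clusters of replicate 1, 4 of those of replicate 2 and 4 of the combined ones, although members made up 6.27, 6.36 and 6.37% of these lists. Of the highest 100 they supplied 13, 12 and 11. In the following, leading members are those with the highest scores of the combined list on each arm, and ranks are those in the replicate lists. No member on X was among the highest 50 in any list. Clusters in the interior of X were also few there: 0 of 1007 in replicate 1, 3 of 1004 in replicate 2 and 4 of 1070 in the combined list.

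The highest score of both replicates belonged to the same member, on 3L. In the combined list it ran from 1575948 to 1602882 (26935 bp), centred 1589 kb from the end, with a score of 2.23. Its main piece scored 2.33 in replicate 1 and 2.36 in replicate 2, rank 1 in each, and a second cluster covered part of the rest in both. A shorter 3L member, 7643 bp wide, spanned 748612 to 756254. It scored 2.15 in replicate 1, where it ranked 7, and 2.25 in replicate 2, where it ranked 3. Members of its width class, 5 to 10 kb, had quartiles at the 60.8th and 83.6th percentiles in replicate 1. Next on 3L, positions 305994 to 320382 (14389 bp), scored 2.05 and 2.02 with ranks 20 and 29.

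On 2L the 2 leading members were wide. The domain at positions 161614 to 202390 (40777 bp), 182 kb from the end, scored 2.18 in replicate 1 and 2.20 in replicate 2, with ranks 5 and 6. The next, at 922254 to 958186 (35933 bp), scored 2.19 and 2.11 with ranks 4 and 14. Another, at 1051708 to 1079986 (28279 bp), scored 1.95 and 1.91 with ranks 42 and 59.

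On 3R the leading member was compact: positions 27230424 to 27239834 (9411 bp), 669.9 kb from the end, scored 2.22 and 2.23 with ranks 3 and 4. It was followed by 26615752 to 26633072 (17321 bp), with 1.98 and 2.00 and ranks 32 and 41, and by 27423844 to 27440890 (17047 bp), with 1.66 and 1.80 and ranks 186 and 100. The leading X members ranked lower than the first member of each other arm. The first in the combined list, 424418 to 446308 (21891 bp), had 1.72 in replicate 1 and 1.89 in replicate 2, ranks 147 and 67. The next X members, 1970598 to 1987340 (16743 bp) and 1905970 to 1917210 (11241 bp), ranked 157 and 213 in replicate 1 and 79 and 112 in replicate 2. Replicate 1 had a higher X member, 1802093 to 1812230 (score 1.89, rank 62), which was chosen after its value was seen. There replicate 2 held a wider cluster, 1800060 to 1821134, with a score of 1.48 and rank 446. Each of these 12 leading combined members was covered over 96% of its length in both replicates.

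Member domains were at most 68021 bp wide in the combined list, short of the 106499 bp reached in the interior. That widest member lay on 3L from 507414 to 575434. It was a single cluster of 67760 bp in replicate 2 and 2 clusters in replicate 1, and 99.3 and 99.6% of it was covered. The widest on 2L, 1884134 to 1943640 (59507 bp), was called whole in both replicates with scores of 1.71 and 1.80. On X the domain from 737534 to 780360 (42827 bp) was whole in both, while that from 1473724 to 1511556 (37833 bp) came as 5 separate clusters in replicate 1 and as 3 in replicate 2. On 3R the domains at 27721454 to 27763530 (42077 bp) and 27447330 to 27487928 (40599 bp) lay 163 and 437 kb from the end and were whole in both. The other wide 3L member, 931796 to 975050 (43255 bp), was whole in replicate 1 and in 2 pieces in replicate 2. Of the 383 combined domains of 20 kb and over, 29 were members, while members were 386 of all 6056 combined clusters (6.37%). By arm, they were 9 of the 66 such domains on X, 9 of 79 on 2L, 7 of 97 on 3R and 4 of 74 on 3L. Combined clusters of any width numbered 112 at the end and 1070 in the interior on X, and 86 and 869 on 2L. On 3R they were 83 and 1172, and on 3L 105 and 963. The 6.37% is over the whole list and is not the share of members on any 1 arm.

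**Figure D5:**
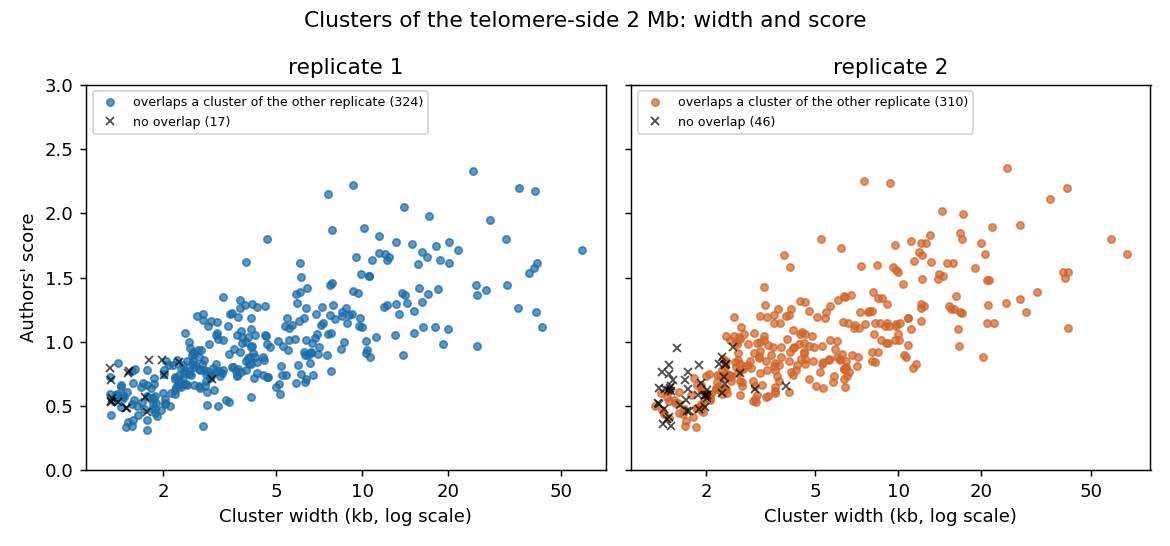
Width (kb, log scale) and authors' score of every cluster in the telomere-side 2 Mb, by replicate; crosses mark the clusters that overlap none of the other replicate's. The 17 crosses of replicate 1 and 46 of replicate 2 are narrow, none wider than 2971 and 3921 bp, while the highest scores belong to clusters found in both.

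Members were found in both replicates about as often as interior clusters. Of the replicate 1 members, 324 of 341 overlapped a replicate 2 cluster by at least 1 bp (95% Wilson interval 92.2 to 96.9%), against 92.9% of the interior and 93% of the whole list. Of the replicate 2 members, 310 of 356 overlapped a replicate 1 cluster (87.1%, 83.2 to 90.2%), against 88.5 and 88.1%. The difference from the interior was 0.361 ± 2.53 points and changed sign between replicates. These intervals cover counting error only. Members of up to 2 kb were the least often matched: 77.0% of them in replicate 1 and 50.0% in replicate 2, against 75.6 and 62.0% of interior clusters of that width. On 3L 98.9% of replicate 1 members but 86.1% of replicate 2 members had a partner, and on X 95.1 and 82.7%.

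In bases, the replicates shared 2.20 Mb of the 2.53 Mb covered by either in the telomere-side 2 Mb, a Jaccard index of 0.868, against 0.857 in the interior. The index was 0.804 on X at the end and 0.804 in its interior. It was 0.896 on both 3L and 3R at the end, against 0.873 and 0.867 inside. Among 235 members that paired singly between replicates, the median shift was 149 bp at the start, 155 bp at the end and 5.45 points in score percentile.

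Of the 386 combined members, 273 (70.7%, Wilson interval 66.0 to 75.04%) overlapped clusters of both replicates, against 67.6% of the interior and 67.6% of the whole list. A further 13 met clusters of replicate 1 alone and 31 those of replicate 2 alone. The other 69 (17.9%) overlapped neither and had a median width of 1371 bp. Such members made up 25.3% on 3R (21 of 83, interval 17.2 to 35.6%) and 22.3% on X (25 of 112, 15.6 to 30.9%), against 11.4% on 3L (12 of 105, 6.66 to 18.9%) and 12.8% on 2L (11 of 86, 7.29 to 21.5%). In the interior of these arms the share ran from 16.4% on 3R to 19.7% on 2L. Both regions typed as depleted in the combined list lay outside the telomere-side 2 Mb.

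Between clusters the ends of the arms held 28 stretches of 50 kb and over with no combined cluster, or 3.5 per Mb, against 3.60 per Mb in the interior. They took up 30.9% of the telomere-side sequence and 34.7% of the interior. Sequence outside the first cluster of an arm was not counted, and neither were stretches crossing the 2 Mb limit. The uncounted outer stretches of 50 kb and over were 67085 bp on 2L and 129603 bp on 3L. The order of ends and interior can therefore not be read from these values. The median stretch between neighbours was 3057 bp among members and 2639 bp inside, and 4427 bp on 3R, the highest of the 4 ends. The longest on each arm were 2L from 1420507 to 1599743 (179237 bp), X from 188355 to 365543 (177189 bp), 3R from 26426941 to 26592487 (165547 bp) and 3L from 1037151 to 1151355 (114205 bp). The first 3 held no cluster of either replicate, and that on 3L held 1 of replicate 2. The empty stretch on X fell within its poorly covered outer 0.5 Mb.

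At the 2 Mb limit itself, neighbouring clusters on either side differed more in score on X and 3R than on 2L and 3L. On X the last member (5091 bp, score 0.560) was followed by a cluster of 4489 bp with 1.03. On 2L the values were 5483 bp with 0.790 inside and 6431 bp with 0.728 outside. On 3R a cluster of 1849 bp with 0.393, in neither replicate, faced a domain of 26851 bp with 1.398. On 3L the last member (4735 bp, 0.742) and the next cluster (2533 bp, 0.838) were separated by 264847 bp without a cluster in any list. The high-coordinate end of 2R, left out by the rule, held 103 clusters in its last 2 Mb in replicate 1 and 110 in replicate 2, or 51.5 and 55.0 per Mb against 48.9 and 50.3 in its interior. Its covered share was 26.4 and 27.2%, against 31.2 and 32.1%.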

How the data were processed

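H2Bub ChIP-seq was analysed from 3 deposited lists of enriched clusters, 1 per ChIP replicate and 1 combined. The aligner was Bowtie 0.12.7, according to the submitters' processing notes, and the genome FlyBase release 5, per the file headers. Each deposited cluster carries the authors' score. The scale of the score, the caller, its threshold and how the combined list was made were not given in the sources used here. Start and end positions were used as deposited, 1-based and inclusive. No read counts were used, so depth is unknown and no error of a score could be computed. Inputs enter only through the authors' processing.

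A midpoint decided membership. Covered share counts bases cut at the region's limits, overlap means at least 1 bp, and score percentiles were taken within the whole list. Members, tests and lists were chosen with earlier results of these data known. Named regions are, from the combined list and per arm, the 3 highest-scoring, 2 widest and outermost members, the longest stretch between clusters and the clusters at the 2 Mb limit. Alternatives were other limits, thresholds, merging, arms and lists. The summary code was tested on simulated data. Calculations used Python 3.11.15, NumPy 2.4.6, pandas 2.3.3, SciPy 1.17.1 and Matplotlib 3.10.9.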

Additional observations from a re-analysis of the deposited data

How the results depend on the processing

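No paired analysis was possible because ChIP was not compared with input: input lists were not analysed here. Depth is unknown, so what depth limits was not measured. Values are members minus interior. Leaving out each replicate gave -2.90 to -2.04 clusters per Mb, 0.331 to 0.902 points of covered share, 318 to 332.5 bp of median width and 5.70 to 7.03 points of score percentile; it leaves no second list for the share found in the other replicate. The cause of the shifts below was not tested.

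Density (-2.47 per Mb) became -1.08 with clusters less than 1000 bp apart merged, -1.43 with the interior taken to the centromere-side end, -1.50 in the combined list and -1.15 with 2R added. It reversed to 1.87 with the upper 50% by score. Covered share (0.617 points) became 1.34 for the outer 1 Mb, 1.79 with the upper 50%, 1.61 with the longer interior and 1.17 with distance counted from the outermost combined cluster, and reversed to -0.398 with 2R. Median width (325 bp) became 345 bp for the outer 1 Mb, 345 bp with the upper 50%, 522 bp with merging, 292 bp in the combined list, 254 bp with 2R and 370 bp from the outermost cluster. Score percentile (6.37 points) became 2.76 for the outer 1 Mb and 5.33 with 2R. The share found in the other replicate (0.361 points) reversed to -0.384 for the outer 1 Mb and -0.933 with the upper 50%.

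Alternatives added after seeing the data left out the outermost 100 kb or an arm, or weighted arms equally. Without the outermost 100 kb, density was -1.36, covered share 1.81 and width 419 bp. Without 3R, density reversed to 0.370, covered share was 1.73, width 228 bp and score percentile 4.25. Without 3L, density was -4.78, covered share reversed to -0.418 and width was 295.5 bp. Without 2L, density was -3.34 and width 551 bp. Without X, width was 452.5 bp, and with equal weights 562 bp.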
